A study of Mus musculus with 50 samples.

Results

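The gene Nqo1 and 9 further genes of the NRF2 pathway were followed in bulk RNA sequencing of mouse sarcomas, 10 of the 37469 identifiers in the count table. The members were the rows of the count table that carried the symbols Nqo1, Nfe2l2, Keap1, Hmox1, Gclc, Gclm, Txnrd1, Srxn1, Slc7a11 and G6pdx, and all 10 were among the 19327 genes that passed a filter on low counts. Nqo1 was selected on its difference between transplants and primary tumors at 0 Gy, which was already known from these data, and that difference is described here without a test. The other 9 genes were taken as known parts of the pathway. The question was whether Nqo1 moves together with the other NRF2 genes.

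The 48 tumors were p53/MCA sarcomas of 129/SvJae mice. Primary tumors arose in mice with floxed Trp53, 6 to 10 weeks old, after an adenovirus carrying Cre and then 300 µg of the carcinogen 3-methylcholanthrene (MCA) had been injected into the gastrocnemius. Transplants grew from 50000 cells of the cell line 402230 in the same muscle of syngeneic mice, so that the 16 transplants share a single line and its parental tumor, whereas the 32 primary tumors arose independently. Tumors, treated per the labels at a volume near 150 mm3, which the study's methods give as the upper bound, received 0 or 20 Gy and 200 µg of anti-PD-1 or isotype antibody and were collected 3 days later, with 8 primary and 4 transplant libraries per treatment. "Untreated" below means 0 Gy with the isotype antibody. Libraries held 31810461 to 54008259 counts, and levels are given as log2 CPM, counts scaled to the effective size of the library, on which a step of 1 is a doubling. The labels name no separate litters or days, so p-values measure the spread between these samples. A further library each was labelled as the parental primary tumor 402230 and as the 402230 cell line.

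NRF2, encoded by Nfe2l2, is a transcription factor that KEAP1 holds in the cytoplasm and marks for degradation. Oxidants and electrophiles modify KEAP1, and NRF2 then enters the nucleus, pairs with a small MAF protein and binds antioxidant response elements near its target genes. The targets make glutathione (Gclc, Gclm, and Slc7a11 for cystine uptake), keep thioredoxin and peroxiredoxins reduced (Txnrd1, Srxn1), supply NADPH (G6pdx), detoxify quinones (Nqo1) and degrade heme (Hmox1). Because NRF2 is regulated mainly through its stability, the mRNA of Nfe2l2 and Keap1 need not follow the activity of the protein.

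Nqo1 encodes NAD(P)H quinone dehydrogenase and lies on chromosome 8 from 107388225 to 107403206 on the minus strand of mm10 (ENSMUSG00000003849.8). Its promoter and those of other members were searched for the antioxidant response element letters TGACNNNGC on both strands, from 250 bases before to 50 bases after the RefSeq start. RefSeq windows (GRCm38.p6) were at hand for 8 members, and 5 of them, or 62.5%, held the letters in at least 1 window, against 14% of 27025 genes with a window. The members that held them were Nfe2l2, Gclm, Txnrd1, Srxn1 and G6pdx. Among the other NRF2 targets described further on, 8 of 27 held them. Upstream sequences of 250 bases are shown for Nqo1, the member with the largest difference between the models, in which the letters do not occur, and for Gclm, Txnrd1 and G6pdx, in which they stand in capitals. The Nqo1 stretch is chr8:107403206-107403455 on the minus strand, Gclm is chr3:122245307-122245556 on the plus strand, Txnrd1 is chr10:82858956-82859205 on the plus strand and G6pdx is chrX:74428881-74429130 on the minus strand. The sequences, read along the strand of the gene and ending next to the start, follow.
Nqo1: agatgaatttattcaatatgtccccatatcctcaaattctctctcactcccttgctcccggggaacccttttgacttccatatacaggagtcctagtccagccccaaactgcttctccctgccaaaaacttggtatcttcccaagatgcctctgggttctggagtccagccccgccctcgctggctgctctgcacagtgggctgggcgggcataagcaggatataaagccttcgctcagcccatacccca
Gclm: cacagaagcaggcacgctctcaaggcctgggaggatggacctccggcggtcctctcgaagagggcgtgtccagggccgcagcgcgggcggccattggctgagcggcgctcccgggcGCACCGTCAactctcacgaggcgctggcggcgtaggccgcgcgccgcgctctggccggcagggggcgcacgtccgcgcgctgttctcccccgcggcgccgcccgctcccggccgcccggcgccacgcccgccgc
Txnrd1: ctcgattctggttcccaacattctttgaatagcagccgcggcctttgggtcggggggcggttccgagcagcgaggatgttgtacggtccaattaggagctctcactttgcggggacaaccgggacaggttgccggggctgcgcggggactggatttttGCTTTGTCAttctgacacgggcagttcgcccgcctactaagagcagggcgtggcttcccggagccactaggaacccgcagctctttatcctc
G6pdx: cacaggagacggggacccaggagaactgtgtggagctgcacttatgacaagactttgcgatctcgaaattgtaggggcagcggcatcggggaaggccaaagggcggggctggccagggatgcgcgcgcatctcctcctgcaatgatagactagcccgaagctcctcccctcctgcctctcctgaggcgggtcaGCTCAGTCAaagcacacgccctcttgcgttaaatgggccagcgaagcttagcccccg
The first of the capitals lies 92 bases before the start in Txnrd1 and 57 in G6pdx, and in all 3 promoters the letters run on the other strand. A match is a description of letters and not of binding, and where no match is found only these letters are missing from this window.

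The libraries of line 402230 went against their labels in the markers of non-tumor cells. The library labelled parental tumor held 5 counts of Ptprc, the leukocyte antigen CD45, and 2 of the hemoglobin gene Hbb-bs among 48457411 counts, whereas the library labelled cell line held 3779 and 5641 among 41226531. In the former, 4 of 5 leukocyte and T cell markers, 3 of 5 red blood cell markers and 1 of 9 macrophage markers were at 0. Its 9 macrophage markers summed to 10.6 CPM, against 1200.1 in the library labelled cell line and 1707 to 2584 in untreated transplants. The 4 endothelial markers summed to 0.581 and 261 CPM, respectively. Both libraries are therefore named by their labels only. Each is a single library without replicate, and they entered no comparison between groups except 1 alternative described below.

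Nqo1 was high in both, with 8.10 log2 CPM in the library labelled parental tumor and 7.84 in the one labelled cell line. On the same scaling over 50 libraries, the 4 untreated transplants ran from 7.00 to 7.58 and the 8 untreated primary tumors from 1.94 to 4.12. Gclc, the catalytic subunit of the enzyme that begins glutathione synthesis, stood at 7.92 and 7.40 log2 CPM in the libraries labelled parental tumor and cell line, above the 6.30 to 6.74 of untreated transplants and the 4.53 to 5.45 of untreated primary tumors. Slc7a11, the cystine transporter, stood at 5.28 and 7.71, and G6pdx, the first enzyme of the pentose phosphate pathway, at 7.76 and 6.44. Nfe2l2 stood at 7.20 and 7.27 and Keap1 at 6.15 and 5.97. Thus Nqo1, Gclc and Slc7a11 exceeded every untreated primary tumor in both libraries, whereas Nfe2l2 lay within their range of 6.76 to 7.44 in both, and Keap1, with a range of 6.13 to 6.68, lay within it in the library labelled parental tumor and below it in the one labelled cell line.

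In the tumors, Nqo1 formed a low level in most primary tumors and a high level in transplants. In untreated transplants it was 7.38, 7.59, 6.99 and 7.26 log2 CPM, and in untreated primary tumors the lowest, median and highest values were 1.97, 3.00 and 4.18. After 0 Gy and anti-PD-1, transplants had 7.50, 7.16, 7.00 and 7.27, and primary tumors ran from 2.34 over a median of 3.23 to 4.49. Every transplant thus lay above every primary tumor in both unirradiated comparisons. The fitted log2 fold change was 4.07 (SE 0.581) for untreated tumors and 3.87 (SE 0.578) under anti-PD-1, a description, since it chose the gene. In CPM the means were 160.0 ± 27.6 (SD, n = 4) and 9.55 ± 5.14 (n = 8) in untreated transplants and primary tumors.

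**Figure D1:**
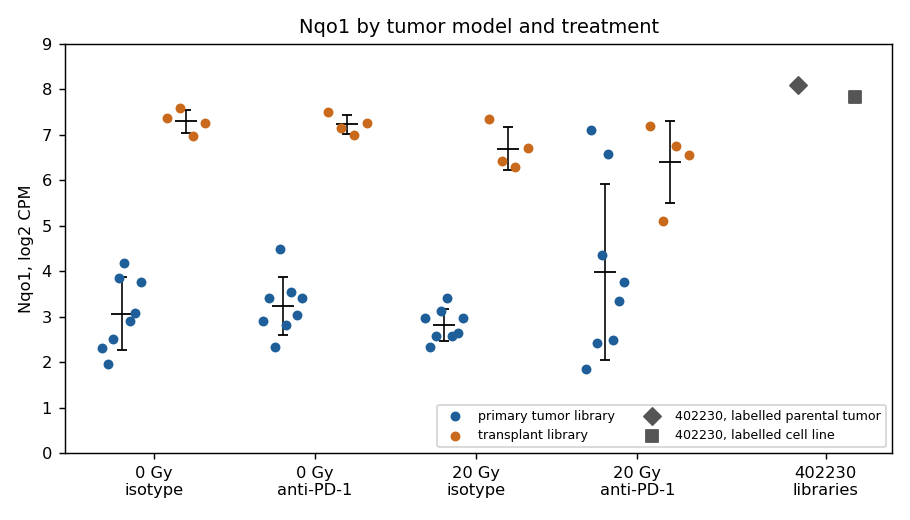
Level of Nqo1 in log2 CPM, 1 point per library, by treatment, with the mean and SD of each group as black bars (8 primary tumors, 4 transplants) and the libraries of line 402230 at the right, which were scaled over all 50 libraries. The transplants sit between 5.11 and 7.59 and 30 of the 32 primary tumors between 1.85 and 4.49, while 2 primary tumors of the group with both 20 Gy and anti-PD-1 reach 7.10 and 6.58.

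Nqo1 also changed its place among the members. Per kilobase of exon, the median level of Nqo1 was 87.2 CPM in the 16 transplants and 5.17 CPM in the 32 primary tumors. Ordered by mean log2 CPM per kilobase, Nqo1 was number 2 of 10 in transplants, after Hmox1 and before Srxn1, and its gaps to both were smaller than the SD between libraries. In primary tumors it was number 9, next to Gclm, from which it did not differ beyond the SD, and 3.32 log2 units above Slc7a11, the lowest member in both models. The orders rest on exon lengths of GENCODE release M21. Counts of Keap1, Gclm, Txnrd1, Slc7a11, G6pdx and Nfe2l2 may include reads of overlapping genes, since no source used here says how the counting treated strand. The remaining 4 members overlap no other annotated gene.

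The glutathione genes followed the same division in unirradiated tumors, with smaller differences. Gclc was 6.74, 6.63, 6.54 and 6.30 log2 CPM in untreated transplants and ran from 4.50 over 5.06 to 5.50 in untreated primary tumors, without overlap. Gclm, the modifier subunit of the same enzyme, was 5.79, 6.04, 6.15 and 5.62 in untreated transplants and 5.15, 5.23 and 5.52 (lowest, median and highest) in untreated primary tumors. Slc7a11 was 4.56, 4.39, 4.78 and 3.77 in untreated transplants against 1.35, 2.37 and 3.83, and here the lowest transplant lay just within the primary range. Txnrd1, the cytosolic thioredoxin reductase, was 8.42, 8.65, 8.68 and 8.06 against 6.83, 7.49 and 7.66, again without overlap. Fitted log2 fold changes of these 4 genes in untreated tumors were 1.49, 0.64, 1.79 and 1.06. G6pdx was 6.70, 6.76, 7.01 and 6.09 in untreated transplants against 5.79, 5.99 and 6.27, with a log2 fold change of 0.64 and overlap through the lowest transplant.

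The regulators and the remaining targets showed little of it in untreated tumors. Nfe2l2 was 6.78, 6.97, 7.11 and 6.56 log2 CPM in untreated transplants and 6.73, 7.16 and 7.47 (lowest, median and highest) in untreated primary tumors. Keap1 was 6.45, 6.42, 6.61 and 6.17 against 6.16, 6.35 and 6.72. Hmox1, heme oxygenase 1, and Srxn1, which repairs overoxidized peroxiredoxins, differed by 0.30 (SE 0.357) and 0.14 (SE 0.409), and both varied widely among primary tumors, Srxn1 from 5.88 to 8.97. All 4 genes overlapped between the models in untreated tumors. Under anti-PD-1 at 0 Gy, Keap1 did not, its highest primary tumor, at 6.46, lying below every transplant.

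In the fit over all genes, 5 members were higher in untreated transplants at an adjusted p under 0.05 (Nqo1, Gclc, Txnrd1, Slc7a11 and G6pdx) and 0 lower, beside 3.88% of all genes called higher and 6.41% called lower. Under anti-PD-1 at 0 Gy the count was again 5 higher and 0 lower, beside 3.39% and 3.96%. Groups did not overlap for 4 members in untreated tumors, where 2.87% of all genes had every transplant above every primary tumor, and for 7 members under anti-PD-1, where 2.68% did. These counts belong to the contrasts from which Nqo1 was chosen and support nothing further. The place of Nqo1 itself in them followed from its choice and is not a test of it. Adding the library labelled parental tumor to the untreated primary tumors, an alternative planned from its label, lowered the Nqo1 difference to 2.00 (SE 0.761) and left 0 members called.

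After 20 Gy and isotype antibody, Nqo1, Slc7a11, Gclc, Txnrd1 and G6pdx were higher in transplants. Nqo1 was 7.35, 6.44, 6.30 and 6.72 log2 CPM in transplants and 2.33, 2.82 and 3.41 (lowest, median and highest) in primary tumors. The fitted difference was 3.90 on the log2 scale (SE 0.580, edgeR adjusted p 4.28e-05). The mice were others than those on which Nqo1 was chosen, but the transplants grew from the same line. For Nqo1, this test and that after 20 Gy and anti-PD-1 are therefore not independent of its choice. Slc7a11 was 5.71, 5.03, 4.74 and 5.92 against 2.57, 3.22 and 3.88 (log2 fold change 2.16, SE 0.516, edgeR adjusted p 0.0091). Gclc was 6.20, 6.23, 6.22 and 6.53 against 4.59, 4.96 and 5.88 (1.24, SE 0.318, edgeR adjusted p 0.0157). Txnrd1 was higher by 1.17 (SE 0.234, edgeR adjusted p 0.00162) and G6pdx by 0.82 (SE 0.143, edgeR adjusted p 0.000339). In each of these 5 genes the lowest transplant lay above the highest primary tumor.

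The edgeR quasi-likelihood test thus called 5 of 10 members higher and 0 lower, where 2.47% of all genes were called higher and 2.4% lower. Since all transplants grew from a single line, a difference of the model cannot be told apart from that of the line. The p-values do not measure a spread between lines. Groups did not overlap for 6 members, Srxn1 being the sixth, against 3.24% of all genes. Gclm, with 0.73 (SE 0.298, edgeR adjusted p 0.161), and Srxn1, with 0.77 (SE 0.401, edgeR adjusted p 0.297), did not pass. Nfe2l2 differed by -0.04 (SE 0.139), Hmox1 by -0.10 (SE 0.362) and Keap1 by 0.15 (SE 0.127), none of which passed. Among the cell markers, 1 of 5 leukocyte and T cell markers (Ptprc, 1.13) and 1 of 5 epithelial markers (Krt18, 2.94) were called higher in transplants. Krt18 stood at 117.5 and 111.4 CPM in the libraries labelled parental tumor and cell line, so it need not mark other cells. The leukocyte and T cell markers summed to 360 to 536 CPM in transplants and 113.1 to 409 in primary tumors, with overlap, while 0 of 9 macrophage and 0 of 9 muscle markers were called. The part of these cells in the member differences was not tested, and in whole tumors fewer cells of a type and less RNA per cell cannot be told apart. Without replicate 4 of these transplants, Gclc (edgeR adjusted p 0.0794) and Slc7a11 (0.0578) lost their calls.

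**Figure D2:**
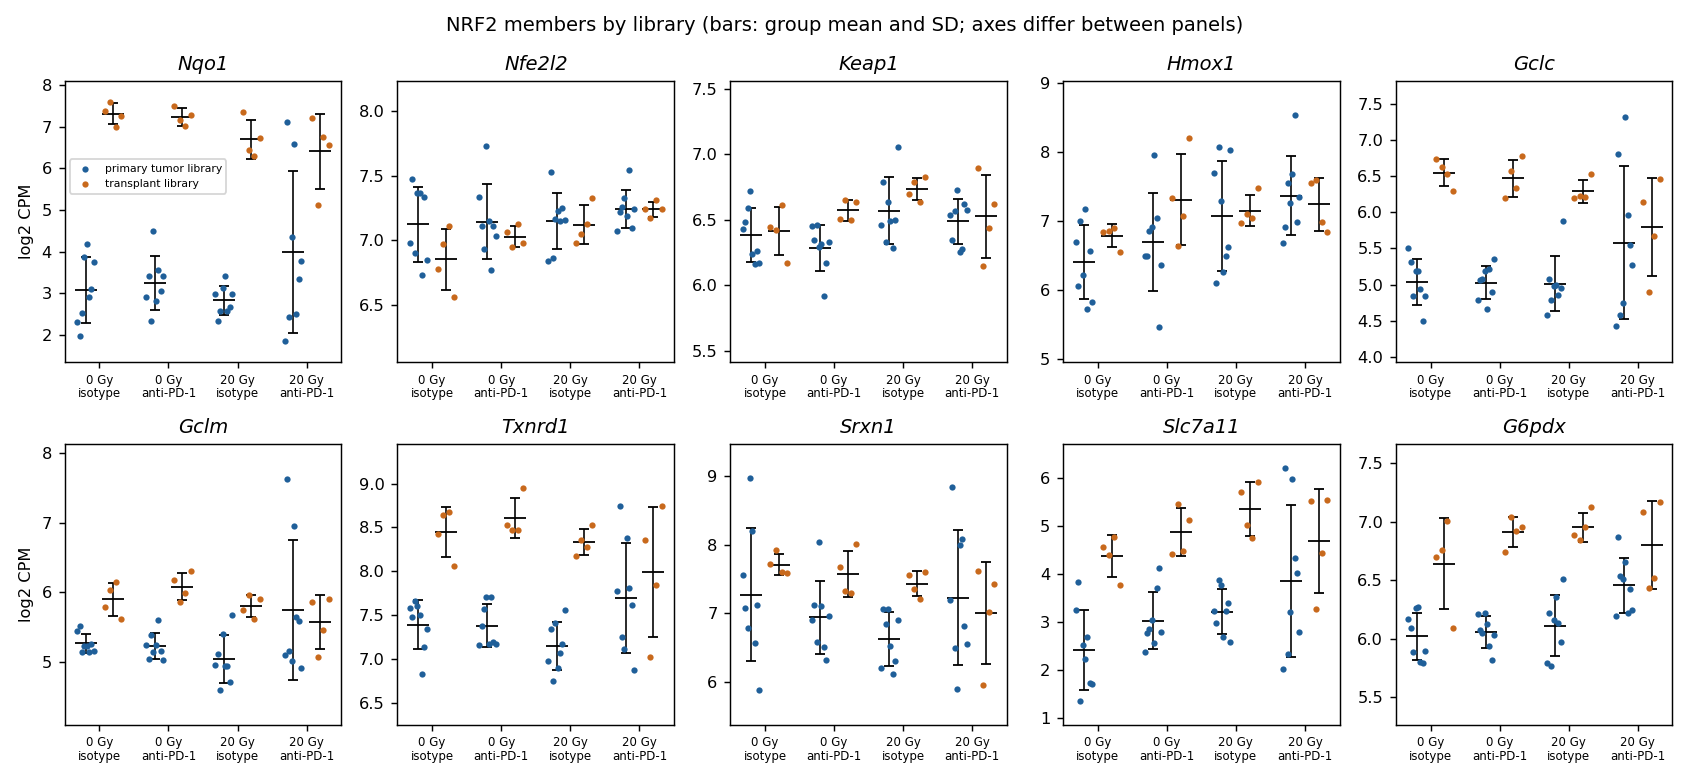
Level of the 10 members in log2 CPM, 1 point per library, by treatment, with group means and SDs as black bars and a separate vertical axis per gene. Nqo1, Gclc, Txnrd1, Slc7a11 and G6pdx separate the models at 20 Gy with isotype, Nfe2l2, Keap1 and Hmox1 do not, and after 20 Gy and anti-PD-1 no member separates them.

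After 20 Gy and anti-PD-1 no member passed the test. Nqo1 was 7.20, 5.11, 6.75 and 6.57 log2 CPM in transplants, whereas primary tumors ran from 1.85 over a median of 3.56 to 7.10, so that the groups overlapped. The log2 fold change of Nqo1 was 1.40 (SE 0.563, edgeR adjusted p 0.119). By edgeR 0 members were called higher and 0 lower, with 2 at an unadjusted p under 0.05. DESeq2 called 0 and limma voom 1, Nqo1. All genes were called at 3.04% higher and 3.72% lower, and 0 members had every transplant above every primary tumor, against 1.01% of all genes. Of the other NRF2 targets, 1 was higher and 1 lower.

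For Nqo1 the overlap came from 2 primary tumors, replicates 2 and 5 of the group given 20 Gy and anti-PD-1, here P2 and P5. In Gclc, Gclm, Txnrd1 and Slc7a11 the other 6 tumors overlapped the transplants as well. At least the lowest transplant lay within their range, and in Gclc it was not the only such transplant. The Nqo1 levels of P2 and P5 were 7.10 and 6.58, whereas the other 6 tumors of the group ran from 1.85 to 4.36. Gclm reached 7.63 and 6.95 in P2 and P5 against 4.91 to 5.64 in the other 6. Gclc reached 6.81 and 7.32 against 4.43 to 5.96, Slc7a11 6.22 and 5.97 against 2.01 to 4.34, and Txnrd1 8.74 and 8.38 against 6.88 to 7.81. Among all 32 primary tumors P2 and P5 held the highest and second highest level of Nqo1, Gclc, Gclm, Txnrd1, Slc7a11 and G6pdx, in either order. The share of all genes with this order was not counted, so it cannot be said to be particular to the members. Gclm in both, Gclc in both and Slc7a11 in both were above every transplant.

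Nfe2l2, Keap1 and Hmox1 did not stand out in P2 and P5. Nfe2l2 was 7.22 and 7.19 in them against 7.08 to 7.54 in the other 6, and Hmox1 was 6.91 and 7.68 against 6.68 to 8.53. Keap1 was 6.35 and 6.25 against 6.28 to 6.73, so that P5 lay just below the rest. Srxn1 was 8.83 in P2, above the other 6, and 7.99 in P5, within their 5.89 to 8.08. Leaving Nqo1 aside, 6 of 9 members in P2 and 5 of 9 in P5 were above all 6 other tumors of the group, where 10.8% and 21.4% of all genes were. Both libraries were singled out after their Nqo1 values had been seen, and their own members are described without a test.

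The targets outside the member list showed the same in part. Of 29 other NRF2 targets that were measured, 10 in P2 and 14 in P5 were above all 6 other tumors of the group, where 10.8% and 21.4% of all genes were. Examples, chosen after their values were seen, were Gsr, the glutathione reductase, at 6.69 and 6.93 against 5.70 to 6.06, Abcc1, an exporter of glutathione conjugates, at 7.72 and 8.47 against 5.92 to 7.23, and Pgd, which follows G6pdx in the pentose phosphate pathway, at 8.74 and 8.34 against 7.31 to 8.12. The ferritin genes Fth1 and Ftl1 were within the range of the other 6 in both. P5 had the lowest macrophage marker sum of the 32 primary tumors (817 CPM, others 1597 to 6030) and the lowest leukocyte and T cell sum (61.3 CPM), whereas its neutrophil sum of 257 CPM was number 6 and its red blood cell sum of 107.7 CPM number 13. P2 had a macrophage sum of 2671 CPM, number 16 of 32, and a leukocyte sum of 240 CPM, number 6. The part of these cells in the member levels was not tested.

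Without P2 and P5, an alternative added after seeing the data, the difference between the models after 20 Gy and anti-PD-1 was 3.27 for Nqo1 (SE 0.410), 1.58 for Slc7a11 (SE 0.435), 0.69 for Gclc (SE 0.239), 0.66 for Txnrd1 (SE 0.206) and 0.46 for G6pdx (SE 0.145). Because the 2 tumors were left out for their high Nqo1, a larger difference in Nqo1 followed from the choice, and these values are a description without a test.

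One transplant of the same treatment, replicate 2 (T2), stood apart in the other direction. Nqo1 was 5.11 in T2 and 6.57 to 7.20 in the other 3, and Srxn1 was 5.96 against 7.02 to 7.61. Slc7a11 was 3.27 against 4.43 to 5.53, and Gclc was 4.90 against 5.68 to 6.46. Leaving Nqo1 aside, 8 of 9 members in T2 lay below the other 3 transplants and 1 above them. Of all genes, 29.4% lay below the other 3 and 31.6% above. T2 also had the highest macrophage marker sum of the 16 transplants (5775 CPM, others 1318 to 4875) and the highest leukocyte and T cell sum (731 CPM, others 127.3 to 616), and its mesenchymal marker sum of 3213 CPM was number 15 of 16. The part of these cells in its low member levels was not tested.

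**Figure D3:**
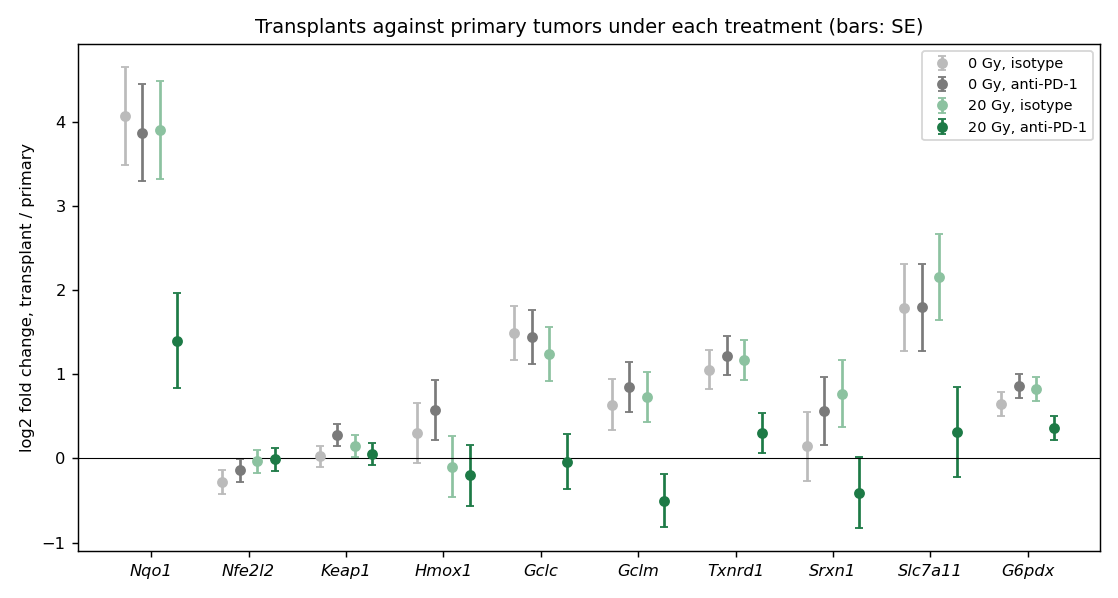
Log2 fold change of transplants over primary tumors for the 10 members under each of the 4 treatments, with bars of 1 SE from the edgeR fit of 48 libraries. The Nqo1 difference is 4.07, 3.87 and 3.90 in the first 3 treatments and 1.40 after 20 Gy with anti-PD-1. Those of Nfe2l2 run from -0.28 (untreated) to -0.01, and those of Keap1 from 0.02 to 0.28 (anti-PD-1 at 0 Gy).

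Whether radiation moved the members was asked within each model, averaged over the antibodies. These tests, and those of anti-PD-1, reuse the 0 Gy libraries on which Nqo1 was selected, so that for Nqo1 they are not independent of its choice. In primary tumors Slc7a11 rose by 1.07 (SE 0.314, edgeR adjusted p 0.00818), Hmox1 by 0.70 (SE 0.209, edgeR adjusted p 0.0098), G6pdx by 0.25 (SE 0.0848, edgeR adjusted p 0.0194) and Keap1 by 0.20 (SE 0.0740, edgeR adjusted p 0.0381). These were 4 of 10 members, and 0 fell, where 16.8% of all genes rose and 14.2% fell. Nqo1 changed by 0.71 (SE 0.342, edgeR adjusted p 0.110) and Gclc by 0.45 (SE 0.191, edgeR adjusted p 0.0692). Txnrd1, Srxn1, Gclm and Nfe2l2 had log2 fold changes between -0.20 and 0.34 and did not pass.

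The values within each antibody and without P2 and P5 are given side by side, and whether the radiation effect differs between the antibodies was not tested. Among tumors with isotype antibody alone Nqo1 changed by -0.40 (edgeR adjusted p 0.599) and 0 members were called. Of 19327 genes, 1776 were called higher and 1758 lower there. Among tumors with anti-PD-1 Nqo1 rose by 1.81 (edgeR adjusted p 0.0129), and 5 members were called, Nqo1, Gclc, Gclm, Slc7a11 and G6pdx. Of the 19327 genes, 1530 were called higher and 628 lower in that fit. P2 and P5 belong to the tumors with anti-PD-1. Without them, as a description, the change over both antibodies was -0.22 for Nqo1 (SE 0.231), 0.45 for Slc7a11 (SE 0.251), 0.74 for Hmox1 (SE 0.219), 0.24 for Keap1 (SE 0.0746) and 0.22 for G6pdx (SE 0.0832). Keap1 lost its call in 8 of the 32 fits that left out 1 library, with adjusted p up to 0.0666. Markers of other cells moved with dose as well. In irradiated primary tumors 7 of 9 macrophage, 8 of 9 muscle and 4 of 5 neutrophil markers rose. The muscle markers did not rise evenly over the libraries. With isotype their summed median was 1656 CPM at 0 Gy and 1325 at 20 Gy, while the highest library went from 5812 to 45247. With anti-PD-1 the median was 1364 and 1915 CPM, and the highest library went from 7484 to 76608. The mesenchymal markers Vim and Pdgfra fell by 0.75 and 0.61. They are not markers of other cells only. In the library labelled parental tumor, which held few non-tumor transcripts, they stood at 3509 and 365 CPM. Macrophages are known to express Hmox1, and the part of these cells in its rise was not tested. With the mean of the muscle markers as a covariate the same 4 members were called.

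In transplants 0 members rose or fell by edgeR, with 1 at an unadjusted p under 0.05 (Nfe2l2, 0.23, SE 0.114, p 0.045, adjusted p 0.240), and DESeq2 and limma voom also called 0, where 5.85% of all genes rose and 1.38% fell. Nqo1 changed by -0.61 (SE 0.478, edgeR adjusted p 0.542), Gclc by -0.42 (SE 0.269) and Slc7a11 by 0.51 (SE 0.438). Of 9 macrophage markers, 5 rose in transplants. The difference of the radiation effect between the models, tested as an interaction, was -1.32 for Nqo1 (edgeR adjusted p 0.511). The test called 0 members, with 3 at an unadjusted p under 0.05, and 0 by DESeq2 and limma voom, where 0.0155% of all genes were called higher and 0.0103% lower.

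**Figure D4:**
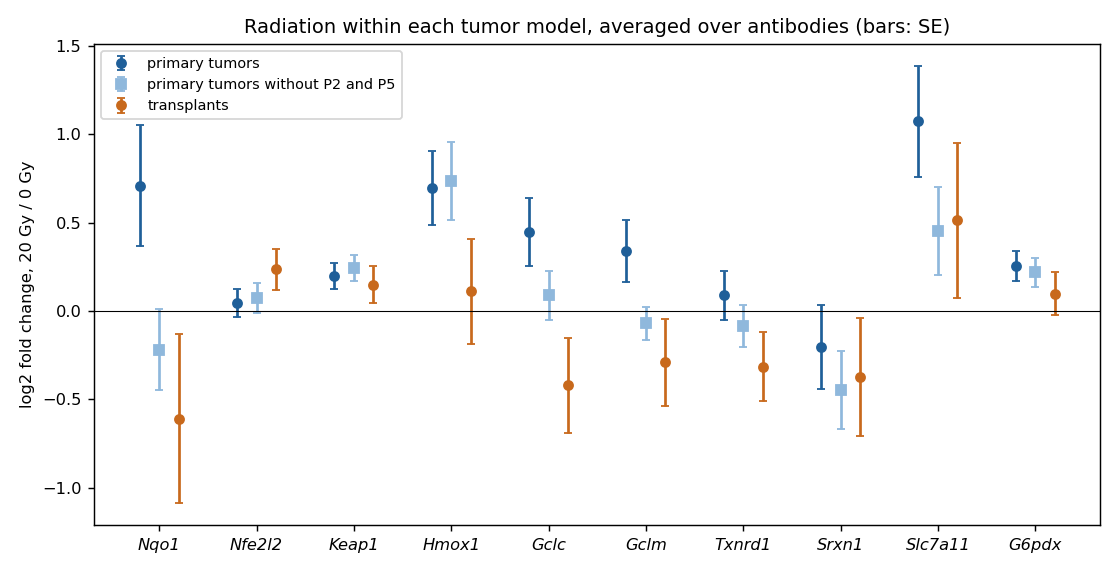
Log2 fold change of 20 Gy over 0 Gy for the 10 members, averaged over the antibodies, in 32 primary tumors, in the 30 primary tumors other than P2 and P5, and in 16 transplants, with bars of 1 SE. Leaving out P2 and P5 moves Nqo1 from 0.71 to -0.22 and Slc7a11 from 1.07 to 0.45, while Hmox1 goes from 0.70 to 0.74.

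Anti-PD-1, averaged over the doses, called 0 members in primary tumors by edgeR, DESeq2 and limma voom. In edgeR 6 had an unadjusted p under 0.05, and 0.0155% of all genes were called higher and 0% lower. Nqo1 changed by 1.23 (edgeR adjusted p 0.386). The change was 2.33 in tumors given 20 Gy (edgeR adjusted p 0.14) and 0.12 at 0 Gy, and whether the doses differ was not tested. Without P2 and P5 the change of Nqo1 over both doses was 0.29 (SE 0.230), a description. In transplants edgeR, DESeq2 and limma voom called 0 members, and 0 had an unadjusted p under 0.05. There Nqo1 changed by -0.13 (edgeR adjusted p 0.9999), and 0% of all genes were called in either direction. The interaction of anti-PD-1 with the model called 0 members by all 3 tools, with 1 at an unadjusted p under 0.05 in edgeR, and 0% of all genes.

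Whether Nqo1 followed the other members from tumor to tumor was examined within each model, on deviations of log2 CPM from the mean of the treatment group, over 18 relations. In the 32 primary tumors the largest r was that of Gclm (r 0.656, permutation p 0.028; Spearman's rho 0.243, permutation p 0.225). Gclc had an r of 0.641 (permutation p 0.0177; rho 0.322, permutation p 0.128), Slc7a11 0.538 (permutation p 0.0437; rho 0.187, permutation p 0.389) and G6pdx 0.504 (permutation p 0.00402; rho 0.398, permutation p 0.0315). Txnrd1 had an r of 0.480 (permutation p 0.0729; rho 0.252, permutation p 0.219) and Srxn1 of 0.433 (permutation p 0.0586; rho 0.281, permutation p 0.177). With Nqo1 as a covariate in an edgeR fit of all genes, Gclm had an adjusted p of 0.0304, Gclc of 0.0813 and the other members of at least 0.40. Nfe2l2 had an r of 0.0776 (permutation p 0.605; rho 0.0707, permutation p 0.700), Hmox1 of -0.0237 (permutation p 0.900; rho 0.0044, permutation p 0.981) and Keap1 of -0.231 (permutation p 0.173; rho -0.280, permutation p 0.130).

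These relations rest on P2 and P5, which were also the 2 primary tumors farthest from the median of Nqo1 (3.01). Without them r was -0.172 for Gclm, 0.102 for Gclc, -0.0614 for Slc7a11, -0.155 for Txnrd1, 0.0863 for Srxn1 and 0.270 for G6pdx, and 0 of 9 members had a permutation p under 0.05. Over the remaining 30 primary tumors Nqo1 ran from 1.85 to 4.49 with no relation to the glutathione genes that could be detected.

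In the 16 transplants Srxn1 followed Nqo1 with an r of 0.859 (permutation p 0.00244; Spearman's rho 0.762, permutation p 0.00143; edgeR adjusted p 0.018). The other members had edgeR adjusted p of 0.116 or more. Slc7a11 had an r of 0.669 (permutation p 0.0605; rho 0.453, permutation p 0.145), Gclc of 0.614 (permutation p 0.187; rho 0.309, permutation p 0.345), Keap1 of 0.582 (permutation p 0.168; rho 0.256, permutation p 0.465), Txnrd1 of 0.578 (permutation p 0.228; rho 0.224, permutation p 0.545) and Gclm of 0.549 (permutation p 0.139; rho 0.377, permutation p 0.237). For G6pdx, Nfe2l2 and Hmox1 r was 0.291, -0.0115 and -0.103 (permutation p 0.548, 0.955 and 0.796), with rho of 0.129, -0.0294 and -0.0912 (permutation p 0.710, 0.918 and 0.791). Without T2 and replicate 3 of the transplants given 20 Gy and isotype, the 2 farthest from the median of 7.08, r was 0.524 for Srxn1 (permutation p 0.053) and between -0.245 and 0.206 for the other 8 members. Without T2 alone, chosen after seeing the data, Srxn1 had an r of 0.580 (permutation p 0.0247), Slc7a11 of 0.273 and Gclc of -0.0439, so that the r of the glutathione genes in transplants rested on T2.

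**Figure D5:**
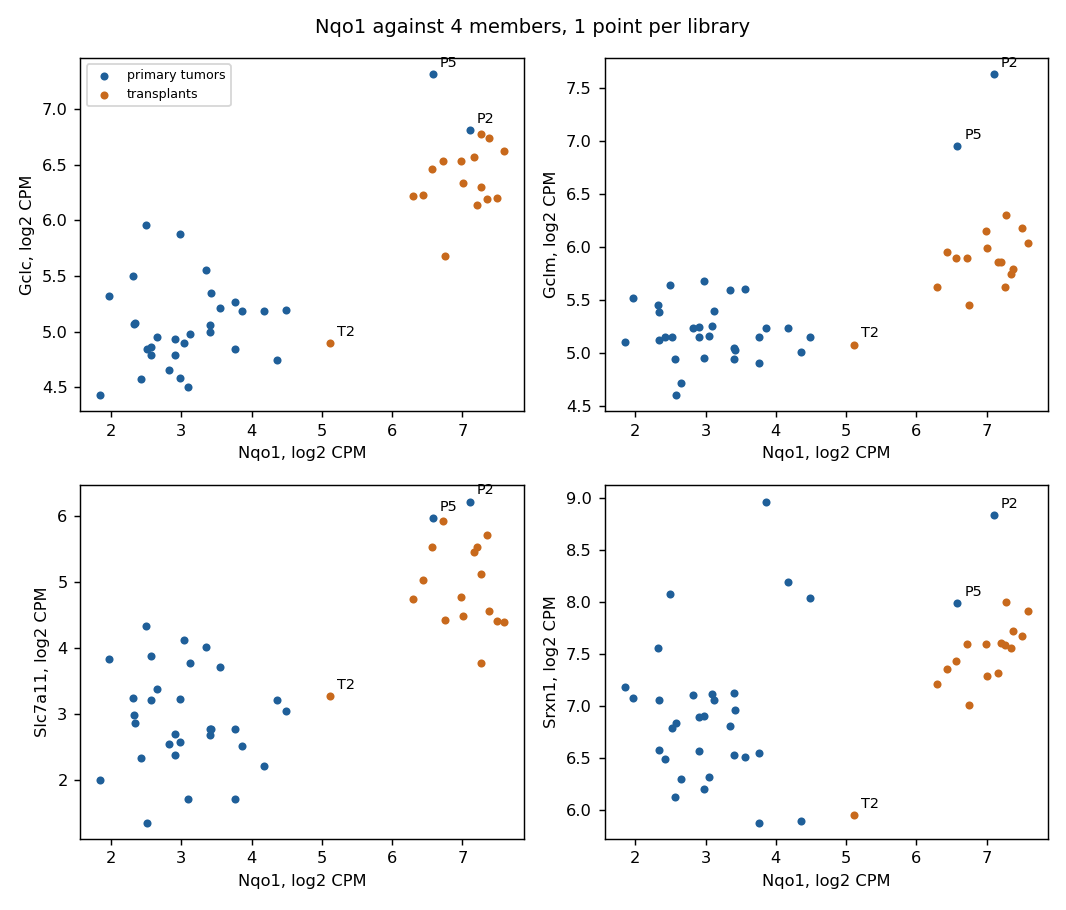
Nqo1 against Gclc, Gclm, Slc7a11 and Srxn1, both axes in log2 CPM, 1 point per library (32 primary tumors, 16 transplants), with P2, P5 and T2 marked. P2 and P5 lie among or above the transplants, T2 lies at the lower end of the transplants, and the remaining primary tumors form a cloud at the lower left with r between -0.172 and 0.102 for these 4 genes.

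The genes whose deviations were most like those of Nqo1 were taken from 11739 genes with an average log2 CPM of at least 2. In primary tumors they were Ikbkg (r 0.721), Armt1 (0.716), Gclm (0.656), Itgb8 (0.646) and Gclc (0.641). Ikbkg, a subunit of the IkB kinase complex, overlaps G6pdx on the opposite strand, and reads of the pair may have been shared. Without P2 and P5, r was 0.433 for Ikbkg, 0.722 for Armt1 and 0.350 for Itgb8. In transplants they were Cdc42ep5, Farsa, Actl6a, Emp3 and Ube2cbp, with r from 0.949 to 0.956, and Srxn1 was number 238. Likeness over libraries is a description and says nothing of shared control.

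Genes of the pathway beyond the members were read from lists. Of 29 measured other NRF2 targets, 11 were called higher and 0 lower in untreated transplants, 9 and 0 under anti-PD-1 at 0 Gy, and 9 and 0 after 20 Gy with isotype, with median log2 fold changes of 0.54, 0.60 and 0.30 against -0.01, 0.01 and -0.03 over all genes tested. In the same contrasts all genes were called at 3.88%, 3.39% and 2.47% higher and 6.41%, 3.96% and 2.4% lower. After 20 Gy and isotype the largest were Gsta4, a glutathione transferase (2.35), Akr1b8, an aldo-keto reductase (1.66) and Abcc4, an exporter (1.46). In irradiated primary tumors 9 of the 29 rose, led by Ephx1, an epoxide hydrolase (1.36), Mgst1, a microsomal glutathione transferase (1.29) and Fth1, the ferritin heavy chain (0.92), and 3 fell, Idh1 (-0.66), Akr1b8 (-0.52) and Tkt (-0.36). There 16.8% of all genes rose and 14.2% fell. In irradiated transplants, where 5.85% of all genes rose and 1.38% fell, Ephx1 rose by 1.28 and Idh1 fell by 0.68.

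Of 14 NRF2 partners and regulators, 1 was called higher in transplants at 0 Gy under either antibody, Nfe2 (2.14 and 2.29), a blood-cell relative of NRF2, 0 after 20 Gy with isotype, and 1 lower after 20 Gy and anti-PD-1, Nfe2l3 (-4.29). In irradiated primary tumors, where 16.8% of all genes rose and 14.2% fell, 3 of the 14 rose and 1 fell, a share near that of all genes. Nfe2, the small MAF gene Mafk and Dcaf11 rose by 1.86, 0.55 and 0.32 and Cul3, the ubiquitin ligase scaffold that KEAP1 uses, fell by 0.25. In irradiated transplants Mafk rose by 0.68 and Bach1, a repressor at the same elements, by 0.36. Of 15 antioxidant enzymes outside the NRF2 lists, Prdx5 was higher in transplants at 0 Gy under either antibody (0.80 and 1.07) and Cat, catalase, after 20 Gy with isotype (0.63). In irradiated primary tumors 4 of the 15 rose, among them Gpx3 (1.66), Glrx (0.91) and Prdx5 (0.74), and 1 fell, Cat (-0.28), again a share near the 16.8% and 14.2% of all genes.

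Slc7a11 and Nqo1 are also known as targets of other factors, and lists for these were read beside the members. The part of these factors in the member levels was not tested. Of 12 ATF4 targets, 0 were higher and 5 lower in transplants at 0 Gy under either antibody, with a median of -0.97 in untreated tumors. Of all genes, 6.41% were called lower in untreated transplants and 3.96% under anti-PD-1 at 0 Gy. Trib3 (-2.69), Asns (-1.94) and Ddit3 (-1.94) led the untreated contrast, in which Slc7a11 had a log2 fold change of 1.79. After 20 Gy with isotype Ddit3 (-1.59) and Asns (-1.10) were lower, and after 20 Gy with anti-PD-1 Asns (-1.24), beside 2.4% and 3.72% of all genes. In irradiated transplants 3 ATF4 targets rose (Atf3 1.43, Ddit3 1.24, Sesn2 1.01), and in irradiated primary tumors 4 rose and 3 fell. Of all genes, 5.85% rose and 1.38% fell in irradiated transplants, and 16.8% rose and 14.2% fell in irradiated primary tumors. A list for the aryl hydrocarbon receptor held its gene Ahr, its partner Arnt and genes of the battery to which Nqo1 is also assigned. Of its 9 measured genes, 0 were called at 0 Gy under either antibody. Ahr was higher in transplants after 20 Gy with isotype (1.32) and Arnt lower after 20 Gy and anti-PD-1 (-0.56). No other gene of the list was called in those contrasts. Cyp1b1 (3.13), Aldh3a1 (2.09) and Ugt1a6a (0.85) rose in irradiated primary tumors, where Nqo1 did not pass the test.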

How the data were processed

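Bulk RNA was sequenced from 48 tumors in 8 groups and 2 libraries of line 402230, grouped by the sample labels. As the labels and methods state, the authors made stranded poly(A) libraries, trimmed reads with Trimmomatic 0.36, aligned them to mm10 with STAR and counted them with the HTSeq method per gene of GENCODE M17, and the deposited values are raw counts without normalization or pooling. How the counting used strand was not given in the sources used here. Of 37469 identifiers, 37408 matched a symbol of GENCODE M21.

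Genes were filtered with filterByExpr and scaled with TMM, and an edgeR 4.0.16 quasi-likelihood model (R 4.3.3) with a mean per group was fitted to the 48 tumors. The p-values are two-sided, adjusted by the Benjamini-Hochberg method over 19327 genes, and called under 0.05. Correlations used 100000 two-sided permutations within treatment groups. Alternatives were DESeq2 1.42.0, limma 3.58.1 voom, upper-quartile factors, no filter, fits of fewer groups, a muscle covariate and leaving out each library. The scripts were tested on simulated data. Depth limits precision for counting error only. The chi-square per degree of freedom was at least 93.6 in all 136 pairs of replicates within a group, so none of these pairs agreed within sampling noise. Libraries of different groups were not compared in this way.

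Members and gene lists were chosen with earlier results of these data known. Genes named are the members, the 5 most like Nqo1 in each model, up to 3 called genes per list, comparison and direction with the largest change, and cell markers. Genes named outside this rule are said to have been chosen after their values were seen.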

Additional observations from a re-analysis of the deposited data

Results flagged for a closer look

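In 5 of 80 sets of libraries (10 members in 8 groups) 1 library lay far from the others of its group by Dixon's criterion, and chance gives about 1 in 20. Hmox1 was lowest in replicate 4 of untreated transplants, at 6.55 log2 CPM. Gclc was highest in replicate 4 of transplants given 20 Gy and isotype, at 6.53, and in replicate 8 of primary tumors given 20 Gy and isotype, at 5.88. Txnrd1 was highest in replicate 4 of transplants given 0 Gy and anti-PD-1, at 8.95. Srxn1 was highest in replicate 4 of the primary group with 0 Gy and anti-PD-1, at 8.04. P2 and P5 were not marked in this way, since the criterion looks for a single far library and they stood apart together.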

How the results depend on the processing

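The count of 5 members higher in transplants after 20 Gy and isotype held under 6 alternatives (5 or 6 called) and ran from 3 to 5 when 1 library was left out. After 20 Gy and anti-PD-1, limma voom called 1 and leaving out P2 and P5, chosen for their high Nqo1, gave 2, and leaving out 1 library gave 0 to 1. For untreated tumors, adding the library labelled parental tumor gave 0. For radiation in primary tumors, the count of 4 became 0 with isotype libraries alone and 2 without the filter on low counts, and ran from 3 to 6 without 1 library. Nqo1 turned from 0.71 to -0.40 with isotype libraries alone and to -0.22 without P2 and P5. The count of members following Nqo1 went from 4 to 0 in primary tumors and from 1 to 0 in transplants without the 2 farthest libraries, and to 4 in transplants without removal of group means. In primary tumors it was 6 without removal of group means and 6 with the muscle list removed, Txnrd1 and Srxn1 being added. Without the 2 farthest, r turned sign in primary tumors for Gclm (-0.172), Txnrd1 (-0.155), Slc7a11 (-0.0614) and Hmox1 (0.0217, and 0.0934 without removal of group means), and in transplants for Gclc (-0.0981), Gclm (-0.0652), Txnrd1 (-0.156), G6pdx (-0.110) and Hmox1 (0.206). Without T2 alone it was -0.0439 for Gclc, -0.110 for Txnrd1, -0.102 for G6pdx and 0.222 for Hmox1, and with the muscle list removed Nfe2l2 in transplants turned to 0.106. Over 780 member differences under other settings, 47 had another sign, 0 of them a called one. The cause of these changes was not tested beyond the libraries left out. No paired analysis was possible because the replicate numbers only name the libraries in accession order.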
